A study of Homo sapiens with 8 samples.

Results

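The subunits of the NuRD deacetylase complex were examined in a genome-wide CRISPR knockout screen read out by Serpin B5, the protein product of SERPINB5. The members were chosen by name as the 15 genes CHD3, CHD4, CHD5, GATAD2A, GATAD2B, MTA1, MTA2, MTA3, MBD2, MBD3, HDAC1, HDAC2, RBBP4, RBBP7 and CDK2AP1, the known subunits and their paralogs, and the rule itself uses no measured value. Each gene had 4 guides, so the members were 60 of the 77441 guides in the genome-wide table, and all 60 passed the filter on low counts. The cells were AsPC-1, an established human line from pancreatic ductal adenocarcinoma, which expressed Cas9 and carried the Brunello guide library. At the time labelled day 8 they were fixed, stained for Serpin B5 and sorted into a low, a bulk and a high bin. The methods give most cells to the bulk bin and the fewest to the high bin. The guides in the genomic DNA of each bin were amplified and counted. The study used Serpin B5 as a reporter of KLF5, an epithelial transcription factor, and asked which genes the reporter needs. All 3 genome-wide groups are 1 library each of the same line and day and differ only in the Serpin B5 bin.

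NuRD, the nucleosome remodelling and deacetylase complex, joins both kinds of enzyme activity on chromatin. A CHD helicase slides nucleosomes with the energy of ATP, and the deacetylases HDAC1 and HDAC2 remove acetyl groups from histone tails. MTA proteins are the scaffold that holds the deacetylases, RBBP4 and RBBP7 are WD40 proteins that bind histones, MBD2 or MBD3 sits between both modules, and GATAD2A or GATAD2B links the MBD protein to the helicase. MBD2 and MBD3 do not occur in the same complex. Nearly every position can thus be filled by more than one paralog, and the paralogs were compared position by position. NuRD is best known as a corepressor but also sits at active enhancers and promoters.

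The low, bulk and high libraries held 102155005, 96310376 and 90421905 counts. Raw counts of the member guides lay between 162 and 3342, which gives a median counting error of 0.076 for a guide's log2 ratio of low over high (range 0.038 to 0.138). Reads are PCR copies, so this covers counting error only. Counts were divided by a median-ratio size factor of each library, and these normalized counts are the levels quoted below. A guide ratio is the log2 of one bin over another after adding 5 to each normalized count, centred on the median of all gene-targeting guides. A gene score is the mean of its guide ratios, given with the standard deviation (SD) over guides, and a positive score means richer in the first bin named. No bin had a replicate library, so no p-value is given and the SD describes the guides of a gene, not a repeat of the sort. A gene was called when its score was at least 1 or at most -1, a 2-fold difference, and the share of all 19113 scored genes past the same limit stands beside each count. For single guides the yardstick was the central 95% range of 994 non-targeting control guides, which ran from -0.28 to 0.33 for low over high, from -0.21 to 0.17 for low over bulk and from -0.33 to 0.23 for high over bulk. SERPINB5 and KLF5 were the top pair of genes, with low versus high scores of 7.08 and 4.70.

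NuRD guides were, as a group, richer in Serpin B5-low cells, and 2 subunits carried most of the size of that shift. In low versus high, CHD4 and GATAD2A of the 15 members were called richer in the low bin, against 1.09% of all genes. No member was called richer in the high bin, against 0.492% of all genes. At a limit of 0.5, MTA2 and MBD2 were added, 4 members in all, against 3.03% of all genes. Scores ran from -0.03 to 2.27 with a median of 0.25, where the median over all genes was 0.00. Of the members 12 of 15 scored above 0 (all genes, 50.3%), and 8 had all guides above 0 (all genes, 11.4%). At the level of guides, 46 of 60 were above 0, 24 lay above the range of the controls and 1 below it. Over all targeting guides these shares were 50%, 12.2% and 13.6%. Every guide lay above the control range in CHD4, GATAD2A and MTA2, a pattern found in 1.85% of all genes.

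The order of the 3 bins, read from the same libraries and so not separate evidence, showed the same tilt. Normalized counts fell from low through bulk to high in 35 of 60 member guides, 58.3%, and rose in 2. Of all targeting guides 23.5% fell and 23.2% rose in this way, and of the control guides 19.8% and 21%. All 4 guides fell in order in CHD4, GATAD2A and MBD2. The share of all genes with every guide in this order was not counted. The 2 guides that rose belonged to CHD3 and MTA1.

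CHD4, the main NuRD helicase of most tissues (chromosome 12, 6570082 to 6614524, hg38), stood far apart from its paralogs. The normalized counts of its 4 guides were 1529, 2011, 942 and 1480.1 in the low bin, 825, 844, 532 and 658 in the bulk bin, and 343, 408, 173 and 309 in the high bin. Each guide was therefore highest in the low and lowest in the high bin. The low versus high score was 2.27 ± 0.11 (SD, 4 guides), a 4.82-fold difference that ranked 12th of 19113 genes. The guides agreed closely, with single ratios between 2.14 and 2.41. The score was 1.03 ± 0.21 for low versus bulk and -1.24 ± 0.25 for high versus bulk. These bins held unequal shares of the cells, so both sizes are not on a common scale. CHD4 was the only member called in low versus bulk (all genes at or above 1, 0.0785%). It was also the only one called in high versus bulk, where 0.298% of all genes were at or below -1. The low versus bulk call lay close to the limit and was not made without its furthest guide (0.96) or with 50 in place of 5 added to the counts (0.98).

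CHD3 (chromosome 17, 7884796 to 7912760), the closest broadly expressed paralog of CHD4, showed no shift of that kind. Its guides had 1893, 681, 1366 and 1552 normalized counts in the low bin and 2070.3, 678, 1221 and 1749 in the high bin. Of these guides 2 were higher in the low bin and 2 lower there, all inside the control range of low versus high, and the score was -0.03 ± 0.15. CHD5 (chromosome 1, 6101787 to 6180321), a helicase known mainly from neurons and testis, scored 0.25 ± 0.32, and 1 of its 4 guides, at 0.65, lay outside the control range. The CHD4 score exceeded that of CHD3 by 2.30 and that of CHD5 by 2.02. The guide ranges of CHD4 did not overlap with those of CHD3 or CHD5 in any of the 3 comparisons, whereas CHD3 and CHD5 overlapped in all of them.

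GATAD2A (chromosome 19, 19385826 to 19508932), one of the paired adaptors between the MBD protein and the helicase, had the next highest score. Its guides had 2056, 1793, 684 and 2221 normalized counts in the low bin, 1631, 1233, 379 and 1554 in the bulk bin, and 896, 621, 213 and 1053 in the high bin. All 4 guides fell in that order, although their overall abundance differed widely. The low versus high score was 1.36 ± 0.27, a 2.57-fold difference with rank 115, and the guides ranged from 1.07 to 1.66. The low versus bulk score was 0.56 ± 0.21 and the high versus bulk score -0.80 ± 0.18. The 47 scored genes within 1000 kb of GATAD2A had a median of 0.29 in low versus high, the highest such median around any member. Their part in the GATAD2A score was not tested. Against the sum of the bulk and high bins GATAD2A scored 0.91 and was not called. That sum adds the normalized counts of both bins without weighting them by their share of the cells.

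Its paralog GATAD2B (chromosome 1, 153789030 to 153923360) leaned the same way with a smaller score of 0.37 ± 0.29. The 4 guides had ratios of 0.52, 0.68, 0.26 and 0.02, so that 2 lay above the control range and 2 inside it. GATAD2A exceeded GATAD2B by 0.99 in low versus high, and by 0.65 against the sum of the bulk and high bins. The guide ranges of the pair were apart in low versus high and in high versus bulk, and overlapped in low versus bulk, where GATAD2B scored 0.15 ± 0.15.

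Among the MTA scaffold proteins MTA2 was the one with every guide above the control range in low versus high. MTA2 (chromosome 11, 62593214 to 62601865) scored 0.62 ± 0.20 in low versus high, a 1.53-fold difference, and its guides were at 0.53, 0.52, 0.50 and 0.92. Its normalized counts were 1980.4, 1505, 603 and 1080.5 in the low bin, 1848, 1571, 554 and 1142 in the bulk bin, and 1374, 1047, 426 and 569 in the high bin. The low and bulk bins were thus nearly alike and the high bin was lower for each guide. The low versus bulk score was 0.02 ± 0.10, while high versus bulk gave -0.60 ± 0.28 with all 4 guides below the control range. Against the sum of the bulk and high bins the low bin gave 0.28. In high versus bulk every guide was below that range in CHD4, GATAD2A and MTA2, against 0.816% of all genes.

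MTA1 (chromosome 14, 105419820 to 105470729) had a similar mean but guides that ran in both directions. Its low versus high score was 0.49 ± 0.72, from single ratios of 1.32, -0.38, 0.26 and 0.75. Of these guides 2 lay above, 1 inside and 1 below the control range, so the score of MTA1 differed from 0 by less than the spread of its guides. The MTA1 guide below the range was the only member guide there. The 19 scored neighbours of MTA1 within 1000 kb had a median of 0.15, and their part in its score was not tested. MTA3 (chromosome 2, 42494569 to 42756947) scored -0.02 ± 0.21 in low versus high, and its guides lay between -0.26 and 0.25, all inside the control range. The guide ranges of MTA2 and MTA3 were apart in low versus high, with a difference of 0.63 that was 0.28 when the low bin was set against the sum of the others. MTA1 overlapped with both.

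MBD2 and MBD3, the alternative methyl-CpG-binding domain subunits, also differed in size. MBD2 is the member known to bind methylated DNA, and mammalian MBD3 has lost most of that preference. MBD2 (chromosome 18, 54151606 to 54224669) scored 0.65 ± 0.25 in low versus high, a 1.57-fold difference and the highest score after CHD4 and GATAD2A. Its guides had 2690.3, 1784, 1871 and 1511 normalized counts in the low bin, 2265, 1679.9, 1440.5 and 1119.6 in the bulk bin, and 1469, 1447, 1196 and 882 in the high bin. Every guide fell from low through bulk to high, and 3 of 4 lay above the control range. Low versus bulk gave 0.28 ± 0.15 and high versus bulk -0.36 ± 0.18. MBD2 lies 9.25 Mb from SERPINB5 on the same chromosome. Chromosome 18 had a median score of 0.11 over 246 genes, and the 8 scored neighbours of MBD2 within 1000 kb had a median of 0.16 and a highest score of 0.33. The part of chromosome position in the MBD2 score was not tested.

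MBD3 (chromosome 19, 1573596 to 1592865) scored 0.15 ± 0.42 in low versus high, with single ratios of 0.72, -0.15, 0.19 and -0.17. There 1 guide lay outside the control range, and without that guide the score was -0.04. In low versus bulk all 4 lay outside it, 2 above and 2 below, and the score was -0.03 ± 0.25. The difference between MBD2 and MBD3 was 0.50, and their guide ranges overlapped in all 3 comparisons.

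Guides against the deacetylases were slightly richer in the low bin. HDAC1 (chromosome 1, 32292083 to 32333635) scored 0.19 ± 0.06 and HDAC2 (chromosome 6, 113933028 to 114011308) 0.31 ± 0.08 in low versus high. The HDAC1 guides had 2519, 3143, 231 and 2899 normalized counts in the low bin, where the high bin held 2082, 2784, 211 and 2542. The HDAC2 guides had 1127, 679.9, 539 and 739 in the low bin and 916, 581, 429.9 and 556 in the high bin. All 8 guides were higher in the low bin, and only 1 of them, an HDAC2 guide at 0.41, lay above the control range. The pair differed by -0.12 with overlapping guide ranges. Both had the larger score on the low side, with low versus bulk scores of 0.20 ± 0.15 for HDAC1 and 0.20 ± 0.26 for HDAC2. Against the bulk bin the high bin gave 0.01 ± 0.20 and -0.11 ± 0.19. The least abundant HDAC1 guide had 0.43 in low versus bulk and 0.30 in high versus bulk. The other HDAC1 guides lay between 0.11 and 0.14, and between -0.13 and -0.05. Without the guide furthest from 0 the HDAC1 low versus bulk score was 0.13.

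The WD40 proteins differed in low versus bulk, and CDK2AP1 stayed near 0 in every comparison. RBBP4 (chromosome 1, 32651142 to 32686211), which other histone complexes share, scored 0.21 ± 0.19 in low versus high, with 4 of 4 guides above 0 and 1 above the control range. Its low versus bulk score of 0.24 ± 0.16 also had all 4 guides above 0, and high versus bulk gave 0.02 ± 0.20. RBBP4 lies 0.32 Mb from HDAC1 on the same chromosome. In low versus high the scored neighbours within 1000 kb had a median of 0.11 around RBBP4 and 0.08 around HDAC1. The part of this shared position in both scores was not tested. RBBP7 (chromosome X, 16839283 to 16870362) scored -0.01 ± 0.31 in low versus high. In low versus bulk it was the lowest member, at -0.16 ± 0.15 with 3 of 4 guides below 0, and there the guide ranges of RBBP4 and RBBP7 were apart by a score difference of 0.40. CDK2AP1 (chromosome 12, 123250112 to 123272334), a small subunit also known as an inhibitor of the kinase CDK2, scored 0.04 ± 0.25 in low versus high, with all guides inside the control range. In low versus bulk it scored 0.01 ± 0.24, from 2 guides above and 1 below that range.

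Set against the bulk bin, the members differed in where their guides had shifted. The bins held unequal shares of the cells, so sizes on both sides of the bulk bin are not on a common scale. In CHD4, GATAD2A and MBD2 the low bin was above and the high bin below the bulk bin for every guide, a pattern not counted over all genes. In MTA2 the high bin was below and the low bin near the bulk bin. MTA1 had a low versus bulk score of 0.11 ± 0.26 and a high versus bulk score of -0.38 ± 0.50, from guides that disagreed. In low versus bulk 2 MTA1 guides lay above the control range, where no MTA2 guide did. In high versus bulk 3 MTA1 guides lay below that range and 1 above it. In HDAC1, HDAC2 and RBBP4 the mean score was higher in low versus bulk, at up to 0.24, than its distance from 0 in high versus bulk. In HDAC1 much of this came from 1 guide of low count, as given above. Over the 15 members the median was 0.11 for low versus bulk and -0.18 for high versus bulk, with -0.004 and -0.005 over all genes. In low versus bulk 13 members scored above 0 (all genes, 48.5%), 7 had every guide above 0 (all genes, 9.72%), and CHD4 and GATAD2A had every guide above the control range (all genes, 1.52%). There 25 of 60 member guides lay above that range and 5 below it, against 15.2% and 9.26% of all targeting guides. In high versus bulk 4 members scored above 0 (all genes, 48.3%), and 5, namely CHD4, GATAD2A, MTA2, MBD2 and RBBP7, had every guide below 0 (all genes, 9.9%). There 22 member guides lay below the control range and 5 above it, against 9.32% and 15.4% of all targeting guides. No member was called at or above 1 in high versus bulk (all genes, 0.324%) or at or below -1 in low versus bulk (all genes, 0%). At or below -0.5 in high versus bulk were CHD4, GATAD2A and MTA2 (all genes, 1.53%), and at or above 0.5 in low versus bulk were CHD4 and GATAD2A (all genes, 1.02%). The 3 comparisons share libraries pairwise, so these values stand side by side and are not separate evidence. Of the 10 pairs of paralogs that fill the same position, the guide ranges were apart in 4 pairs for low versus high, in 3 for low versus bulk and in 4 for high versus bulk. How often the guide ranges of unrelated genes lie apart was not measured, so these counts have no background to be set against.

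The abundance of member guides in the bulk bin also varied. The mean normalized count over guides was 574 for MTA1 and 576 for MTA3, at percentiles 5.58 and 5.67 of all genes. HDAC2 had 681 and CHD4 715, at percentiles 12.2 and 14.8. CHD5 had 776, RBBP4 786 and CDK2AP1 788, at percentiles 20.1, 20.9 and 21.1. HDAC1 (2004 counts) and MBD2 (1626) lay at percentiles 90.8 and 78.9. Loss of cells before the sort and a guide's share of the starting library cannot be told apart in these values, since no library from before day 8 was analysed here. The 2 called members came from different parts of this range, with GATAD2A at percentile 55.1.

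A smaller library focused on transcription factors (TFs), with guides placed in their DNA-binding domains, gave other guides against 6 of the members, GATAD2B, MTA1, MTA2, MTA3, MBD2 and MBD3, 37 guides in all. It was sorted in the same way, again with 1 library for each bin, and the gene scores were computed in the same way. None of the 6 was called in low versus high, where 0.0703% of 1423 genes were at or above 1 and 2.04% at or below -1. The 49 control guides spread far wider than in the genome-wide screen, from -1.22 to 1.39 with an SD of 0.69 against 0.16. Of the 6 members 4 scored above 0, against 41.1% of genes. No member guide lay outside the control range, against 0.991% of targeting guides above it and 8.82% below it, so shifts of the size seen for MTA2 or MBD2 in the genome-wide screen were not detectable guide by guide.

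Within that limit MTA2, GATAD2B and MBD3 had scores of the same sign as in the genome-wide screen, and MTA1, MTA3 and MBD2 did not. Several of these scores were close to 0 and turned sign under an alternative. Without the guide furthest from 0, MTA1 became 0.03 in the TF-focused library and MTA3 became 0.07 in the genome-wide screen. With summed counts MBD3 became -0.05 in the TF-focused library. MTA2 scored 0.35 ± 0.33 (5 guides) with 4 guides above 0, and GATAD2B 0.23 ± 0.50 (6 guides) with 3 above 0. MTA3 had the highest score of the 6, 0.54 ± 0.41 (6 guides), from single ratios of -0.01, 0.23, 1.13, 0.71, 0.75 and 0.42, and ranked 35th of 1423 genes. In the genome-wide screen the 4 other MTA3 guides had given -0.02. MBD2 scored -0.19 ± 0.55 (6 guides), with 2 guides above 0, against 0.65 in the genome-wide screen. MTA1 scored -0.14 ± 0.68 (6 guides) and MBD3 0.06 ± 0.57 (8 guides). In low versus bulk, MTA3 had all 6 guides above 0 in the first TF-focused table (0.72 ± 0.48) and in a second table that holds a low and a bulk library (0.72 ± 0.45). In high versus bulk of the first table all 6 were above 0 as well (0.21 ± 0.17), so that these guides were richer in both sorted bins than in the bulk bin. No MTA3 guide of the first table lay above the control range in low versus bulk, while 2 did in the second, against 2.32% of targeting guides there. The library names given in the descriptions differ only in capital letters, although the sample titles differ further, so whether the second holds a separate sort could not be settled. No member was called in low versus bulk in the first table (all genes, 0.281% at or above 1 and 5.76% at or below -1) or in the second (0.0703% and 4.29%), nor in high versus bulk (0.0703% and 0%).

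Genes that recruit or join NuRD were called in both directions. Of 22 partners, ZMYND8 and ZNF532 were called richer in the low bin in low versus high and TRPS1 richer in the high bin, with a list median of 0.03. For this list and those that follow, the shares of all genes called were 1.09% in the direction of the low bin and 0.492% in that of the high bin. ZNF532, a zinc finger protein that assembles with ZMYND8, scored 1.21 ± 0.14, and its guides lay between 1.03 and 1.35. The chromatin reader ZMYND8 scored 1.50 ± 1.28, where 1 guide at 3.38 stood apart from the others at 1.25, 0.68 and 0.67. TRPS1, a GATA-type zinc finger repressor, scored -1.16 ± 0.22 with all 4 guides richer in the high bin. ADNP, which pairs with CHD4 in a complex of its own, scored 0.62 ± 0.47 with 4 of 4 guides above 0.

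For other complexes built on HDAC1 and HDAC2, or holding RBBP4 or RBBP7, each list had at most 1 called gene. Uncalled genes lay on both sides of 0. The SIN3 list of 14 genes had a median of -0.16 and 1 called gene, the scaffold SIN3A, at -2.02 ± 0.62. Of these genes 4 scored above 0, among them the SIN3A paralog SIN3B (0.50 ± 0.30) and ARID4A (0.75 ± 0.16). Both had 4 of 4 guides above 0. Uncalled genes below 0 included SAP130 (-0.96 ± 0.35), BRMS1 (-0.72 ± 0.72), FAM60A (-0.70 ± 0.08), SUDS3 (-0.54 ± 0.36) and ING2 (-0.37 ± 0.28). The CoREST list of 10 had a median of 0.05 and 1 called gene, the demethylase KDM1A, at -1.03 ± 0.51. In that list 6 genes scored above 0, and ZMYM2, at 0.98 ± 0.19 with 4 of 4 guides above 0, lay just inside the limit. RCOR1 (-0.68 ± 0.27) and ZMYM3 (-0.67 ± 0.36) lay on the other side of 0. None of the 6 genes of the MiDAC and MIER list was called, the furthest from 0 being ELMSAN1, the MiDAC scaffold, at -0.48 ± 0.32. Among 9 genes of other complexes that hold RBBP4 or RBBP7, CHAF1B, a subunit of the chromatin assembly factor CAF-1, was called at 1.05 ± 0.24, and the list had a median of -0.22, with 4 of 9 genes above 0. Every guide was above 0 in CHAF1B, CHAF1A (0.36 ± 0.27) and BPTF (0.65 ± 0.13), against 11.4% of all genes. The Polycomb genes EZH1 (-0.22 ± 0.17), EZH2 (-0.41 ± 0.15), EED (-0.55 ± 0.32) and SUZ12 (-0.56 ± 0.25) scored below 0 and were not called. Over all comparison lists, with those given under other observations, 9 of 86 genes were called. Of these 4 were at or above 1 and 5 at or below -1, against 1.09% and 0.492% of all genes. Calls were thus also made among relatives and partners of the members. Differences between these lists, or between them and the members, were not tested.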

How the data were processed

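Guide counts from 3 genome-wide libraries and 5 TF-focused libraries were used, 1 library for each bin of each table. The values are whole-number read counts for each guide, as the authors deposited them, not normalized. The methods name MAGeCK for the screens, and the submitters' notes add hg38 without a step. The counting tool is not given in the sources used here, and MAGeCK was not run. One TF-focused library is titled high and described as bulk, and was used as high, the bin its column names too. The second TF-focused pair is labelled as genome-wide, although its guides are those of the TF-focused library.

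Counts were scaled by median-ratio size factors (Python 3.11.15, pandas 2.3.3). Guides with a mean normalized count under 30 were left out (76980 genome-wide guides stayed), and genes needed 2 guides. TF-focused gene names were read from guide names. Gene positions are those of GENCODE release 44. The scoring was run on simulated counts with equal and opposite shifts planted in the low and high bins. All guides of a gene had the same planted shift there, so the run cannot show accuracy where guides differ. The members, lists, limits and alternatives were chosen with earlier results of these data known. Every member is named, with SERPINB5 and KLF5 as references. In each list the genes past the limit are named, or else the one furthest from 0. ADNP, SIN3B, ARID4A, ZMYM2, CHAF1A, BPTF, EZH1, EZH2, EED and SUZ12 were named after their values were seen. The same holds for SAP130, BRMS1, FAM60A, SUDS3, ING2, RCOR1 and ZMYM3. No guide sequence was used, so whether a guide also cuts a paralog was not tested.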

Additional observations from a re-analysis of the deposited data

How the results depend on the processing

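The count of called members in low versus high was 2 under 9 alternatives of scaling, filter, added count and gene score. It was 1 against the sum of the bulk and high bins and 4 with a limit of 0.5 on the log2 scale. In low versus bulk the count of 1 became 0 with 50 added to the counts and 0 without the guide furthest from 0, and 2 with a limit of 0.5. In high versus bulk the count of 1 became 3 with that limit, and the median member score moved from -0.18 to -0.082 without the guide furthest from 0. No called score changed sign. Of the genome-wide member scores under the alternatives, 416 moved by less than the SD over guides and 4 by more. This yardstick is widest where guides disagree. MTA1, with an SD of 0.72, fell from 0.49 to 0.21 in low versus high without its furthest guide and still counted as less. Sign changes of scores near 0, as in MBD3 and MTA3, counted as less too. Every member guide passed each filter setting, so those settings moved the scores only through the centring. Of the differences between paralogs 85 moved by less and 5 by more, among them CHD4 minus CHD3 (1.52) and CHD4 minus CHD5 (1.37) against the sum of the bulk and high bins. The counts of guides outside the control range and of guides in bin order, whose alternatives were chosen after seeing the data, moved by less than 1.5 times. All 216 TF-focused scores stayed within the SD over guides. The loss of a library could not be tried with 1 library a bin. No paired analysis was possible because no group had a replicate library. Variation between sorts could not be measured. The SD of the controls in low versus high, 0.163, exceeded the largest counting error of a member guide, 0.138.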

Other observations

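Relatives of the NuRD subunits outside the complex were also scored in low versus high. Among 6 other CHD helicases CHD8, a chromatin remodeller of the same family, was called richer in the high bin (all genes, 0.492%) at -1.51 ± 0.16, the opposite direction to CHD4. Its guides had 396, 251, 446 and 353 normalized counts in the low and 987, 797, 1217 and 1108 in the high bin. Each guide was thus lower in the low bin. CHD2 scored 0.49 ± 0.25 and CHD6 -0.50 ± 0.32, and the list had a median of -0.25. None of 5 other MBD proteins was called, and the furthest from 0 was MBD6 at 0.35 ± 0.32.

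Of 9 other histone deacetylases none was called. HDAC3, the catalytic subunit of the NCoR and SMRT complexes, was the furthest from 0 at -0.98 ± 0.33, with all 4 guides richer in the high bin. Its high versus bulk score was 1.03 and its low versus bulk score 0.04. Of the 4 class IIa deacetylases, HDAC7 (0.85 ± 0.32) and HDAC4 (0.61 ± 0.09) had 4 of 4 guides richer in the low bin, while HDAC5 (0.00 ± 0.11) and HDAC9 (-0.08 ± 0.32) were near 0. In the NCoR and SMRT list of 6 genes GPS2 was called at -1.22 ± 0.36 and TBL1XR1 at 1.62 ± 0.62, in opposite directions. HDAC4, HDAC5, HDAC7, HDAC9, CHD2 and CHD6 were named after their values were seen.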
